A study of Mus musculus with 6 samples.

Results

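The genes described here are markers of the mesothelium, the flat epithelium that covers the uterus as its outer coat, the serosa, and lies directly on the muscle from which these libraries were made. They were chosen by symbol from a list of 9 names, of which 8 matched a row among the 55055 genes of the deposited tables: Msln, Upk3b, Upk1b, Lrrn4, Wt1, Gpm6a, Bnc1 and Muc16. The remaining name, Rspo1x, matched no symbol, and no other gene was put in its place. All 8 genes had enough counts to be tested.

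The libraries were made from RNA of the myometrium, the muscular wall of the uterus, taken from pregnant mice at E19.5. The animals were Tcf23 knockout (KO) mice made with CRISPR/Cas9, and they were set against Tcf23 wild-type (WT) mice, with 3 libraries per genotype, each from a different animal. TCF23 belongs to the basic helix-loop-helix proteins, and the study set out to learn its part in the contraction of the myometrium. The strain, the Tcf23 allele, the number of independent knockout lines and the way the muscle was separated from the serosa and the endometrium were not found in the labels.

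Total counts were 65036402, 55643651 and 39939686 in KO replicates 1, 2 and 3, and 47345181, 52733490 and 55236312 in WT replicates 1, 2 and 3. Tcf23 had 0, 2 and 1 counts in the KO libraries, against 4203, 5970 and 3360 in the WT libraries, so the labels matched the counts in 6 of 6 libraries. Levels below are the authors' deposited normalized counts, raw counts multiplied by 1 constant per library, unless another scale is named. Markers of smooth muscle were abundant in each library, with sums over 8 genes of 753536 to 1905773 in KO and 1348311 to 1579047 in WT. KO replicate 3 was the lowest for smooth muscle, KO replicate 1 the highest for the sum of placental markers, and WT replicate 3 stood apart from the other WT libraries for Upk3b, Upk1b, Lrrn4, Muc16 and Bnc1. Fitted changes of the mesothelial members are therefore also given without single libraries where that moves them.

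Mesothelial cells secrete the lubricating film that lets abdominal organs slide past each other, and they carry a dense surface coat of membrane-anchored glycoproteins. Mesothelin, the product of Msln, is held on the surface by a lipid anchor and binds the very large mucin MUC16, known in human medicine as CA125. Uroplakins were first known from the umbrella cells of the bladder, where they form plaques of the apical membrane, and Upk3b and Upk1b are members of that family that mesothelium also expresses. Wt1 encodes a zinc finger transcription factor of the developing and adult mesothelium and is also expressed in other uterine cells.

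Promoters of Upk3b, Lrrn4, Muc16 and Bnc1 are shown first, because the levels of these genes varied together across the libraries. The sequences run 250 bases before to 50 bases after a RefSeq start site (build GRCm38.p6), 5′ to 3′ on the strand of the gene. Capitals mark the E-box letters CANNTG, the site that many basic helix-loop-helix proteins bind, and the TEAD letters GGAATG, searched on both strands, and matches of the motifs did not overlap in these windows.
Upk3b promoter, chr5:136038246-136038545, plus strand: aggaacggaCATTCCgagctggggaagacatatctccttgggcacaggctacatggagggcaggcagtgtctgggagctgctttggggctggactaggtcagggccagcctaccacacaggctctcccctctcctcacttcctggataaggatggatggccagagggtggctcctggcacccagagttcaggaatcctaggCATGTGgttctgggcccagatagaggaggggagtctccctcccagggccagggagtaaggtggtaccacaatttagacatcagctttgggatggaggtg
Lrrn4 promoter, chr2:132880813-132881112, minus strand: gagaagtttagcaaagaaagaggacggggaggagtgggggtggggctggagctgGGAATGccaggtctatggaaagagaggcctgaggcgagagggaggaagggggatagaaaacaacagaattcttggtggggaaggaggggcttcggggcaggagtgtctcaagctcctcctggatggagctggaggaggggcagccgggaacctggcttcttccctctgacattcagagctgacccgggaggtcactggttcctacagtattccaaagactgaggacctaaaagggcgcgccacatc
Muc16 promoter, chr9:18674554-18674853, minus strand: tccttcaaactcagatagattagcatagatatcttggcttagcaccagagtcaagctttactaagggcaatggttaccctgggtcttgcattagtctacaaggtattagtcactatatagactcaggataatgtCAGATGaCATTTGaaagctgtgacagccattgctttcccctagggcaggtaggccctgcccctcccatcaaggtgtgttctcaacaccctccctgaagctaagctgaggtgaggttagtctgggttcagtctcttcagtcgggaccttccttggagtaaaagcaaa
Bnc1 promoter, chr7:81992250-81992549, minus strand: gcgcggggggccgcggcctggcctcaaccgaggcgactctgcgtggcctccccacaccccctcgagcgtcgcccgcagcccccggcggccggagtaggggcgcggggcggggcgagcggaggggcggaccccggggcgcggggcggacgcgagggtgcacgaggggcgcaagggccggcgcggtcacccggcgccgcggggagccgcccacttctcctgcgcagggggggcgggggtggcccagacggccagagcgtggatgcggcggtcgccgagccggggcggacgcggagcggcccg

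An E-box was present in 2 of these 4 windows, Upk3b and Muc16, and in 72.3% of all 32851 promoter windows of the table. The TEAD letters were present in 2 of the 4, Upk3b and Lrrn4, and in 14.7% of all windows. The windows differ in base composition, with a GC share of 83.3% for Bnc1 and 46.7% for Muc16, against a median of 52.7% over all windows. The motifs were chosen after the expression values had been seen, and a match is only a description of the letters.

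Upk3b, Upk1b, Lrrn4, Muc16 and Bnc1 were high in WT replicates 1 and 2 and low in the other 4 libraries, which included WT replicate 3. Upk3b (chromosome 5, 136038496 to 136046487, plus strand, mm10) encodes a uroplakin with 1 membrane span. It had 123, 178 and 295 normalized counts in KO replicates 1, 2 and 3, and 3094, 1104 and 152 in WT replicates 1, 2 and 3. WT replicate 3 lay inside the KO range, so the groups overlapped, and Upk3b was 20.4-fold higher in WT replicate 1 than in WT replicate 3.

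Upk1b (chromosome 16, 38773184 to 38800328, minus strand) encodes a tetraspanin, the kind of uroplakin that pairs with the UPK3 proteins in the bladder. It had 22.5, 37.0 and 42.7 normalized counts in KO replicates 1, 2 and 3, and 775, 292 and 16.6 in WT replicates 1, 2 and 3. WT replicate 3 was the lowest library of all 6. The ratio of Upk1b to Upk3b, per kb of exon, was 0.309, 0.35 and 0.244 in KO replicates 1, 2 and 3 and 0.423, 0.446 and 0.184 in WT replicates 1, 2 and 3, so Upk3b was more abundant than Upk1b in each library.

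Lrrn4 (chromosome 2, 132868305 to 132880891, minus strand) encodes a membrane protein with leucine-rich repeats. It had 23.3, 47.1 and 91.8 normalized counts in KO replicates 1, 2 and 3, and 929, 393 and 40.5 in WT replicates 1, 2 and 3. Again WT replicate 3 fell between KO libraries. Muc16 (chromosome 9, 18495455 to 18674530, minus strand), the mucin that mesothelin binds, had 12.1, 45.3 and 46.5 in KO replicates 1, 2 and 3, and 645, 262 and 13.8 in WT replicates 1, 2 and 3. In WT replicate 3 its level was close to that in KO replicate 1, and each of these rested on 15 raw counts.

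Bnc1 (chromosome 7, 81966653 to 81992307, minus strand) encodes basonuclin 1, a zinc finger protein of germ cells and of keratinocytes as well as mesothelium. It had 4.02, 17.6 and 12.6 normalized counts in KO replicates 1, 2 and 3, and 246, 79.7 and 5.52 in WT replicates 1, 2 and 3. Its low values rested on 5 raw counts in KO replicate 1 and 6 in WT replicate 3, whose exact 95% Poisson intervals, 1.62 to 11.7 and 2.2 to 13.1, cover counting error only and overlap. These 2 libraries could therefore not be put in order for Bnc1 at this depth.

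**Figure D1:**
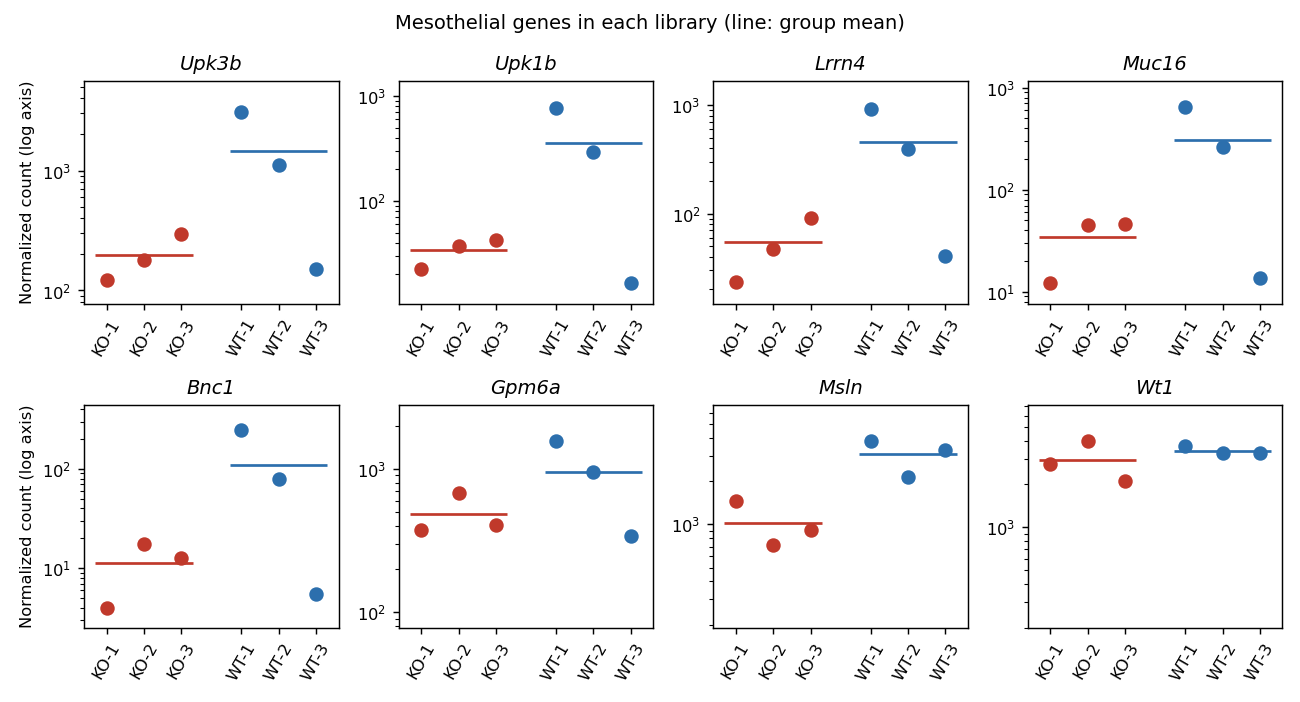
Normalized counts of the 8 mesothelial genes (y axis, log scale) in 3 KO and 3 WT libraries (x axis), with 1 point per library and a line at each group mean. In Upk3b, Upk1b, Lrrn4, Muc16 and Bnc1, WT-1 and WT-2 lie far above the rest while WT-3 lies within or below the KO points, whereas the Msln groups do not overlap and Wt1 differs little.

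Summed over these 5 genes, the level was 185, 325 and 489 normalized counts in KO replicates 1, 2 and 3, and 5689, 2131 and 228 in WT replicates 1, 2 and 3. The spread within WT was therefore 24.9-fold between replicates 1 and 3, and that within KO was 2.64-fold between replicates 3 and 1. WT replicate 3 stood apart from its own group and between KO replicates 1 and 2.

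Over all 6 libraries, the make-up of the sum varied much less than its size. This did not hold for every gene within KO, where the sum spanned only 2.64-fold. In KO replicates 1, 2 and 3, Bnc1 took 2.17, 5.4 and 2.57% of the sum, and Muc16 took 6.52, 13.9 and 9.51%. Upk3b took 66.5, 54.8 and 60.4% of the sum in KO replicates 1, 2 and 3, and 54.4, 51.8 and 66.5% in WT replicates 1, 2 and 3. Over all 6 libraries, Lrrn4 took 12.6 to 18.8%, Upk1b 7.26 to 13.7%, Muc16 6.05 to 13.9% and Bnc1 2.17 to 5.4%. These are shares of normalized counts, not corrected for exon length, and Upk3b took the largest and Bnc1 the smallest in each of the 6 libraries.

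**Figure D2:**
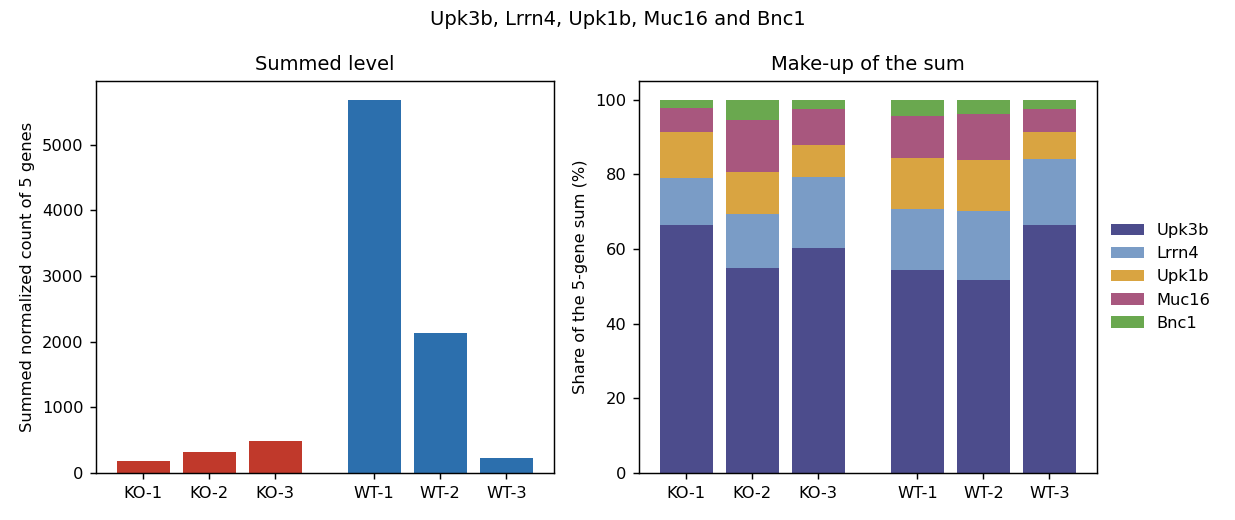
Left, summed normalized counts of Upk3b, Lrrn4, Upk1b, Muc16 and Bnc1 in each library (bars from 0, KO in red and WT in blue), with 5689 in WT-1 and 185 in KO-1. Right, the share of each gene in that sum (%), in which Upk3b stays between 51.8 and 66.5%.

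Likeness between genes was measured as the root mean square difference (RMS) of log2(normalized count + 1), centred on the mean of each gene, over the 6 libraries. Among the 10 pairs of the 5 genes the RMS ran from 0.22 (Bnc1 and Muc16) to 0.55 (Muc16 and Upk3b). Mesothelin and its binding partner were far less alike, with an RMS of 1.92 between Msln and Muc16. These 5 genes were grouped after their values were seen, so no test is given for the group. The order in which WT replicate 1 exceeded WT replicate 2, and both exceeded the other 4 libraries, held for 6 of the 8 members and for 3.78% of the 19599 tested genes. A range of more than 20-fold between the highest library and a lowest one above 0 was seen in 5 of the 8 members and in 0.975% of tested genes. This order and the 20-fold cut were also taken from the members' own values. The counts of members beside the shares of all genes are therefore a description only.

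Gpm6a (chromosome 8, 54954843 to 55060871, plus strand), a membrane glycoprotein gene known best from neurons, shared the order of the high libraries but over a narrower range. It had 374, 676 and 407 normalized counts in KO replicates 1, 2 and 3, and 1555, 958 and 340 in WT replicates 1, 2 and 3. The lowest library was again WT replicate 3, and the whole range was 4.57-fold. Nerve and Schwann cell markers did not follow it: their sum over 7 genes was 1816 to 4290 in KO and 2122 to 3127 in WT, and the Schwann cell factor gene Sox10 had means of 9.55 ± 4.92 in KO and 4.86 ± 2.96 in WT (SD, n = 3 each).

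Msln behaved differently from the other surface genes. Msln (chromosome 17, 25748613 to 25754378, minus strand) had 1452, 717 and 910 normalized counts in KO replicates 1, 2 and 3, and 3794, 2155 and 3302 in WT replicates 1, 2 and 3. Every KO library lay below every WT library, which was so for 1 of the 8 members and for 7.31% of tested genes. WT replicate 3, low for the 5 genes above, was above WT replicate 2 for Msln. The ratio of Msln to Upk3b normalized counts was 11.8, 4.02 and 3.08 in KO replicates 1, 2 and 3, and 1.23, 1.95 and 21.8 in WT replicates 1, 2 and 3.

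Wt1 (chromosome 2, 105126529 to 105173616, plus strand), the transcription factor gene of the set, was nearly level. It had 2778, 3975 and 2118 normalized counts in KO replicates 1, 2 and 3, and 3664, 3321 and 3295 in WT replicates 1, 2 and 3. The highest and lowest libraries were both KO, and the range was 1.88-fold. Its neighbour Wt1os, an antisense transcript whose annotated span in the deposited table does not overlap that of Wt1, had 165, 195 and 114 normalized counts in KO replicates 1, 2 and 3, and 174, 191 and 197 in WT replicates 1, 2 and 3.

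Per kb of exon, the members differed widely in level, and the order changed with the library. Wt1 had 477 normalized counts per kb on average in KO and 553 in WT, and Msln had 335 in KO and 1006 in WT. Means of Gpm6a were 151 in KO and 296 in WT, and those of Upk3b were 56.4 in KO and 411 in WT. Upk1b averaged 16.3 per kb in KO and 173 in WT, and Lrrn4 14.6 in KO and 122 in WT, and their libraries overlapped within each genotype. Bnc1 had 2.45 in KO and 23.8 in WT, and Muc16, with the longest exon length at 26.4 kb, was lowest at 1.31 in KO and 11.6 in WT. By the means, the order began with Wt1 in KO and with Msln in WT. In KO the ranges of Wt1 and Msln overlapped, and in KO replicate 1 Msln, at 474 per kb, was above Wt1, at 448. Those of Bnc1 and Muc16 overlapped too. In WT, Msln was above Wt1 in each library, and all later neighbours in the order overlapped.

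None of the 8 members passed the test between genotypes, although all 8 had a negative fitted change, as did 47.9% of tested genes. edgeR's quasi-likelihood test, adjusted by Benjamini-Hochberg over 19599 genes, called 0 members at an adjusted p under 0.05, against 4 genes (0.0204%) lower and 0 (0.0%) higher in KO among all tested. With the replicate number as a block it called 7 genes and again 0 members. At an unadjusted p under 0.05, 6 members were lower, against 3.29% of tested genes lower and 5.27% higher. With the replicate block only 1 member, Msln, was at an unadjusted p under 0.05, against 4.21% of tested genes lower. It was also 1, Msln, with limma-voom, without KO replicate 1 and without WT replicate 1. DESeq2 called 1 member, Msln, and limma-voom called 0. The median log2 change of the members was −2.98, beside 0.01 over all tested genes. Since the members were listed with results of these libraries known, their shared sign is a description.

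Msln had the smallest p of the set. Its mean was 1026 ± 381 normalized counts in KO and 3084 ± 841 in WT (SD, n = 3 each), with a log2 change of −1.58 ± 0.31 (SE) and an edgeR adjusted p of 0.215. It was called under 2 alternatives. DESeq2 gave an adjusted p of 0.000212, where 135 genes were called lower. These were 0.384% of the 35177 genes to which DESeq2 gave a p-value, with or without an adjusted one. The edgeR test without a count filter gave an adjusted p of 0.0255, where 0.0965% of genes were called lower. With the replicate block its edgeR adjusted p was 0.0551, and over all alternatives it ran from 0.000212 to 0.751.

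The 5 genes with the shared profile had larger fitted changes and larger errors. Upk3b had 199 ± 88 normalized counts in KO and 1450.1 ± 1501 in WT (SD, n = 3 each), and its log2 change was −2.87 ± 0.93 (SE, edgeR adjusted p = 0.421). The SD within WT was thus as large as the WT mean. Log2 changes were −3.41 ± 1.1 for Upk1b, −3.08 ± 1.01 for Lrrn4, −3.15 ± 1.15 for Muc16 and −3.27 ± 1.16 for Bnc1 (edgeR adjusted p = 0.421, 0.423, 0.495 and 0.48). Without WT replicate 1, the library in which all 5 were highest, the log2 change was −1.65 for Upk3b, −2.17 for Upk1b, −2.01 for Lrrn4, −1.99 for Muc16 and −1.89 for Bnc1. Without WT replicate 3 it was −3.4 for Upk3b, −3.97 for Upk1b, −3.63 for Lrrn4, −3.72 for Muc16 and −3.84 for Bnc1, and none of the 5 was called in either case.

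Gpm6a and Wt1 had the smallest fitted changes, with log2 values of −0.96 ± 0.51 and −0.21 ± 0.23 (SE, edgeR adjusted p = 0.692 and 0.9). The change in Gpm6a was −0.41 without WT replicate 1 and −1.37 without WT replicate 3. For Wt1 it was −0.02 without KO replicate 3 and −0.48 without KO replicate 2. In bulk tissue, fewer mesothelial cells in a sample and less RNA of these genes per cell cannot be told apart. Nor can RNA of these genes from other cells, such as the other uterine cells that express Wt1, be separated from that of mesothelium.

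**Figure D3:**
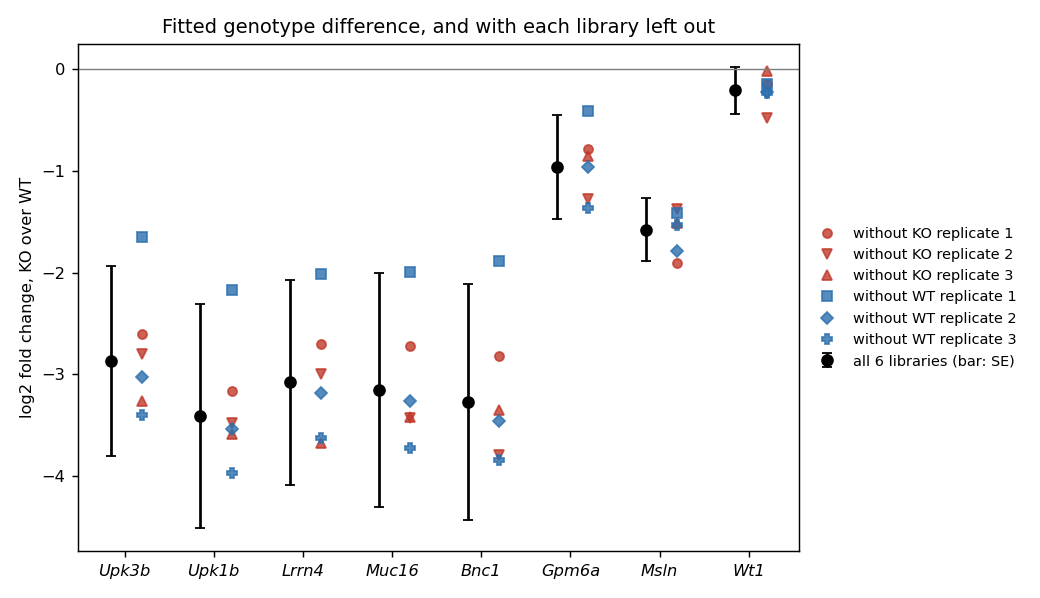
Fitted log2 fold change, KO over WT (y axis), of each mesothelial gene from all 6 libraries (black, bars ± SE) and with each library left out in turn (red for a KO library left out, blue for a WT library). The change in Upk3b runs from −3.4 without WT replicate 3 to −1.65 without WT replicate 1, while that in Msln stays between −1.91 and −1.38.

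Other genes known from mesothelium gave a mixed picture. Of 12 such genes, none passed edgeR's test over all genes. At an unadjusted p under 0.05, 1 was higher and 2 were lower in KO, against 5.27% of tested genes higher and 3.29% lower. The median log2 change of the 12 was −0.04. Lrp2, the gene of the endocytic receptor megalin, followed the profile of the 5 genes, with 11.3, 43.4 and 33.9 normalized counts in KO replicates 1, 2 and 3, and 312, 111 and 17.5 in WT replicates 1, 2 and 3. So did Nkain4, a gene for a protein that interacts with the sodium pump, with 16.1, 39.7 and 23.9 in KO replicates 1, 2 and 3 and 141, 75.7 and 12.0 in WT replicates 1, 2 and 3. Their RMS to the mean profile of the members was 0.37 and 0.42, where that of Upk3b, itself part of that profile, was 0.38.

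Calb2, which encodes calretinin, a calcium-binding protein used in human pathology as a mesothelial marker, had the opposite order of the groups. It had 293, 131 and 64.1 normalized counts in KO replicates 1, 2 and 3, against 11.1, 23.9 and 37.7 in WT replicates 1, 2 and 3. The groups did not overlap, which was so in this direction for 7.1% of tested genes, and the log2 change was 2.74 ± 0.64 (SE, edgeR adjusted p = 0.295). Tbx18, a T-box factor gene of serosal mesenchyme in the embryo, was low throughout, with means of 5.55 ± 0.731 in KO and 10.3 ± 0.62 in WT (SD, n = 3 each, log2 −0.89, edgeR adjusted p = 0.552). Every KO library lay below every WT library for Tbx18, as in 7.31% of tested genes. Rspo1, which encodes an R-spondin that enhances Wnt signalling, had means of 1807 ± 917 in KO and 1596 ± 398 in WT (SD, n = 3 each; edgeR adjusted p = 0.956).

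Keratins of simple epithelia, which mesothelium shares with the uterine lining, did not follow the mesothelial genes. Krt7, Krt8, Krt18, Krt19 and Slpi, the gene of a secreted protease inhibitor, summed to 120409, 37942 and 178868 in KO replicates 1, 2 and 3, and 96254, 65329 and 144654 in WT replicates 1, 2 and 3. All 5 had positive fitted changes, where 47.9% of tested genes had a negative one. The log2 changes of Krt7 (0.01 ± 0.48, SE) and Krt19 (0.02 ± 0.64, SE) were far smaller than their errors. Of the 5, 0 passed edgeR's test, and 1, Slpi, had an unadjusted p under 0.05 (log2 1.0, edgeR adjusted p = 0.461). Among all tested genes, 5.27% were higher in KO at that unadjusted threshold. The sum over 10 markers of uterine epithelium, Epcam and Cdh1 among them, was likewise highest in KO replicate 3 and WT replicate 3 and lowest in KO replicate 2, at 42713, 19582 and 98655 in KO replicates 1, 2 and 3 and 53405, 32967 and 69006 in WT replicates 1, 2 and 3. Single markers departed from this order, such as Foxa2, which was lowest in KO replicate 3 (26.4), and Sprr2f, which was higher in WT replicate 1 (11457) than in WT replicate 3 (9611).

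**Figure D4:**
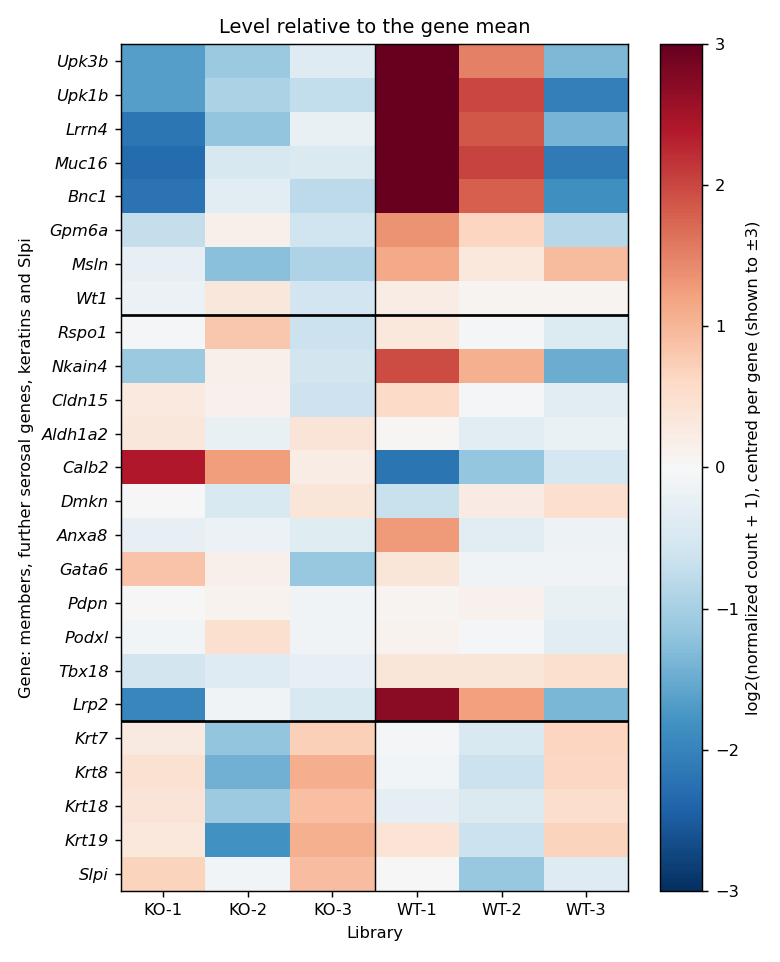
Log2(normalized count + 1), centred on the mean of each gene and shown to ±3, for the 8 members, 12 further serosal genes and 5 genes shared with uterine epithelium (rows) in 3 KO and 3 WT libraries (columns). Lrp2 and Nkain4 share the red WT-1 and WT-2 cells of Upk3b, Upk1b, Lrrn4, Muc16 and Bnc1, and the keratins do not.

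Gene relatives of the members, taken by family name, did not share their profile. Of 14 relatives 12 were tested, and 0 passed edgeR's test. At an unadjusted p under 0.05, 2 were higher and 0 lower in KO, against 5.27% of tested genes higher and 3.29% lower. The bladder uroplakin genes Upk2 and Upk3a were under 10 normalized counts in each library. Upk1a, the tetraspanin relative of Upk1b, had 2548, 2404 and 7670 in KO replicates 1, 2 and 3 and 2473, 2729 and 5368 in WT replicates 1, 2 and 3, with its highest levels in replicate 3 of each genotype. Lrrn2, a leucine-rich repeat relative of Lrrn4, had 805 ± 177 in KO and 428 ± 113 in WT (SD, n = 3 each; log2 0.92, edgeR adjusted p = 0.329), and Gpm6b, the closest relative of Gpm6a, had 1747 ± 273 in KO and 1270.3 ± 227 in WT (log2 0.46, edgeR adjusted p = 0.529). Bnc2, the other basonuclin gene, had 1457 ± 702 in KO and 2152 ± 237 in WT (edgeR adjusted p = 0.721).

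Markers of other cell types also varied between libraries. Placental markers summed over 10 genes to 15295, 635 and 313 in KO replicates 1, 2 and 3, against 1457 to 2069 in WT, and 2 of them, Ctsq and Gcm1, were under 10 normalized counts in each library. Tpbpa, a marker of the spongiotrophoblast, made up most of the sum in KO replicate 1, with 12602 normalized counts there. Prl2c2 (1665) and Prl8a9 (481) were also highest in KO replicate 1. Psg21, Prl3b1 and Prl8a8 had 163, 113 and 28.1 there, against 386, 222 and 47.8 in WT replicate 2, their highest library, and Syna was highest in WT replicate 1 (24.4). Prl6a1 had 213 ± 75.6 in KO and 81.0 ± 9.8 in WT (SD, n = 3 each, edgeR adjusted p = 0.283). Its groups did not overlap, as in 7.1% of tested genes in this direction. KO replicate 1 was also the lowest library for the sum of the 5 mesothelial genes. Endothelial markers (6 genes) summed to 17594 to 33386 in KO and 23633 to 29522 in WT, fibroblast markers (8 genes) to 740851 to 894734 in KO and 666119 to 1072615 in WT, and leukocyte markers (7 genes) to 25059 to 30593 in KO and 21540 to 31011 in WT. Adipocytes were hardly represented, since 5 of 6 markers, Adipoq and Plin1 among them, stayed under 10 normalized counts in each library. The part of these lists in the mesothelial values was not tested.

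**Figure D5:**
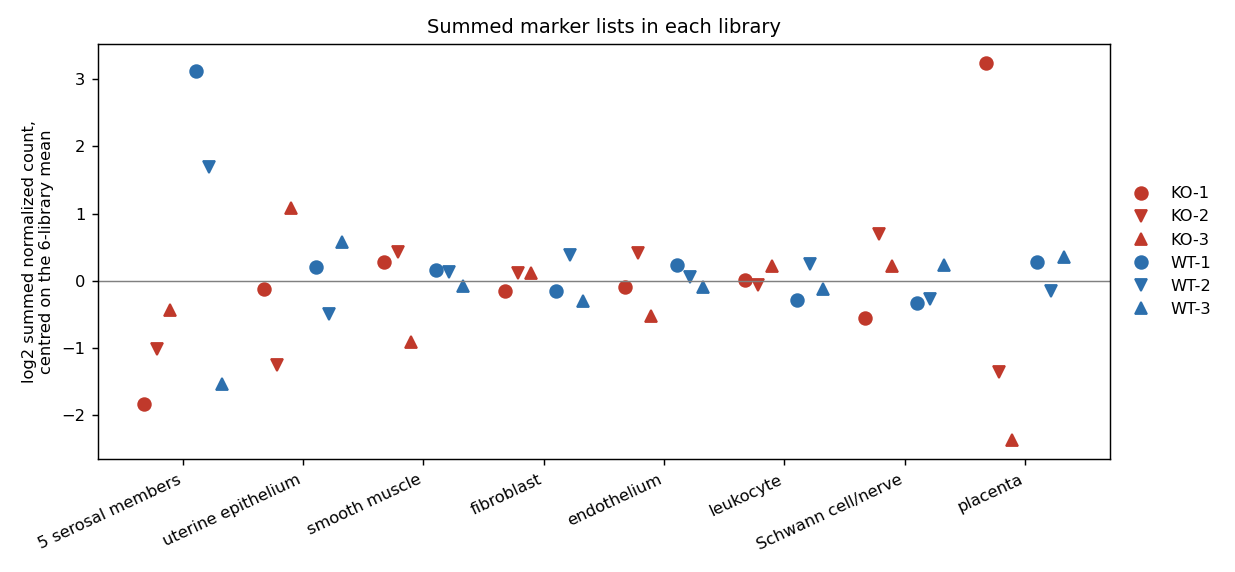
Log2 of the summed normalized counts of marker lists, centred on the mean over the 6 libraries (y axis), for 5 mesothelial members and 7 other cell types (x axis), with KO in red, WT in blue and a symbol for each replicate number. WT-1 and WT-2 stand high for the mesothelial sum and near 0 for most other lists, and KO-1 stands high for the placental sum, most of which is Tpbpa there.

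Among 13669 other genes with a mean of at least 100 normalized counts and no library at 0, those nearest to the mean profile of the 8 members included Zdbf2, Rims1, Sfrp2, Aspn, Samd4, Tmem151a and Eef1a2, at an RMS of 0.79 to 0.88. The members themselves, which make up that profile, lay at 0.38 (Upk3b) to 1.27 (Wt1), and Msln (1.18) and Wt1 were farther from it than these outside genes. Sfrp2, a gene for a secreted Wnt modulator, had 65.9, 95.2 and 137 normalized counts in KO replicates 1, 2 and 3 and 269, 119 and 65.3 in WT replicates 1, 2 and 3. Aspn, which encodes the matrix proteoglycan asporin, had 6373, 7930 and 4834 in KO replicates 1, 2 and 3 and 25327, 16065 and 12386 in WT replicates 1, 2 and 3. Their edgeR adjusted p values were 0.859 for Sfrp2 and 0.235 for Aspn.

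The genes nearest to Msln, looked up after its values were seen, were different ones, led by Gm8883, Zfp948, Rnase10, Mmd and Gja1, at an RMS of 0.26 to 0.29. Gja1, the gap junction connexin gene of the uterine muscle at term, had 36106, 21988 and 17575 normalized counts in KO replicates 1, 2 and 3, and 66033, 59383 and 66161 in WT replicates 1, 2 and 3. It was not called, with an edgeR adjusted p of 0.237. Every KO library lay below every WT library, as in 7.31% of tested genes, and genes picked for nearness to Msln share its split by that choice. The member nearest to Msln was Wt1, at an RMS of 0.85, but Wt1 was nearly level and did not share the order of libraries. KO replicate 2 was the highest library for Wt1 (3975) and the lowest for Msln (717).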

How the data were processed

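RNA was poly(A)-selected and made into directional libraries, per the labels' protocols. The authors deposited a file of raw counts by Ensembl gene per library, and a table of normalized counts for all 6, a signal that is each raw count scaled by a single constant in a library (largest relative deviation 4.97e-10). Per the submitters' processing notes, which give no role or order, the tools were DESeq2 2.11.40.7, HTSeq 0.9.1, HISAT2 2.2.1 and FastQC 0.73 and the build mm10. Whether counting used the strand is not stated in these notes. Of the 8 members, 3 overlap other annotated genes (Gpm6a, Bnc1 and Muc16), with summed counts of at most 0.564% of their own.

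Raw counts as deposited went into edgeR 4.0.16 (R 4.3.3): filterByExpr, TMM, a quasi-likelihood fit of genotype, and Benjamini-Hochberg adjustment over 19599 genes at 0.05. The standard error (SE) of a log2 change is the change divided by the square root of F. Alternatives used DESeq2 1.42.0 and limma 3.58.1, other scalings and filters, log2 of the normalized count plus 1 or 10, the replicate block, and each library left out. P-values measure the spread between animals, 1 library each.

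The titles give replicate numbers 1 to 3 in both genotypes. Deviations from the group means correlated across genes at 0.147, 0.188 and 0.201 for same-numbered libraries. Between libraries of different number the correlations were −0.213 to 0.0567. Each group mean comes from the same 3 libraries, so these correlations depend on each other and cannot settle whether the numbers pair animals. The test as reported used genotype alone, and the replicate number entered only as a block in an alternative. The labels do not say what the number stands for. No 2 replicates agreed within sampling noise (chi-square over its degrees of freedom was 35.4 to 233), and none was treated as a duplicate.

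Exon lengths are unions over GENCODE M21 and were found for all 8 members. Promoters are RefSeq's, and 5 of the 8 members matched the table. Members, lists and alternatives were chosen with earlier results of these data known. The 5-gene group, the motifs, the genes near Msln, the library order and the 20-fold cut were chosen after the values were seen. The text names all members found, from each serosal or relatives list up to 4 genes with the smallest p and any it describes after its values were seen, and the 8 genes with the nearest profile, of which 1 is not reported here.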

Additional observations from a re-analysis of the deposited data

How the results depend on the processing

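edgeR's test as reported called 4 genes and 0 mesothelial members. The count of all called genes was 12 with upper-quartile scaling, 81 with no count filter, 382 with DESeq2, 7 with the replicate block and 10 with limma on log2(normalized count + 10), and 1 to 7 with any 1 library left out (1 without WT replicate 1, 1 without WT replicate 2 and 7 without KO replicate 3). Members called were 1, Msln, with no filter and with DESeq2, and 0 in each other setting, the 6 left-out libraries and the replicate block included. Members at an unadjusted p under 0.05 were 6 in the test as reported and 1 with the replicate block, with limma-voom, with limma on either log2 scale, without KO replicate 1 and without WT replicate 1. The log2 change of every member stayed negative in all settings run. The median over members ran from −3.52 to −1.57, and the low end in size (−1.57) came with a filter of CPM of at least 1 in 3 libraries, under which 5 members were tested. With any 1 library left out it ran from −3.52, without WT replicate 3, to −1.77, without WT replicate 1.

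The summed level of the 8 members, as the log2 ratio of the KO mean to the WT mean, was −1.08. It was −1.86 without Wt1, the member with the largest mean normalized count in each genotype. For the sum of Upk3b, Upk1b, Lrrn4, Muc16 and Bnc1 alone, an alternative added after seeing the data, it was −3.01. With any 1 library left out, the 8-gene value ran from −1.28 to −0.71, and the 5-gene value, also added later, from −3.55 (without WT replicate 3) to −1.82 (without WT replicate 1). Depth limits Bnc1 and Muc16, whose lowest libraries held 5 and 15 counts. Each group had 3 animals, and the 5-gene sum spanned 24.9-fold within WT.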
